A study of Oryza sativa with 9 samples.

Results

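Leaf transcripts of 10 rice genes that make or break down abscisic acid (ABA) were compared after submergence: DSM2, zeaxanthin epoxidase (ZEP), the 9-cis-epoxycarotenoid dioxygenases NCED1 to NCED5 and the ABA 8'-hydroxylases ABA8ox1 to ABA8ox3. The genes were taken by locus number from the 38652 entries of the expression table. They were chosen for their role in the pathway, with earlier results of these data known. Where several entries carried the name of a locus, the entry whose transcripts hold that locus was used. All plants were IR64, which the labels describe as submergence-intolerant. Seedlings 20 days old were sprayed with 25 mL of gibberellin (GA) at 100 mg/L (GAT), of paclobutrazol (PB), a triazole that blocks GA synthesis, at 200 mg/L (PBT), or of the 0.1% solvent alone (control), 2 days before submergence. Every group then spent 4 days under 100 cm of water before the leaves were taken, and each group had 3 libraries. The solvent of the control is ethanol in the labels and methanol in the study's text. No unsubmerged library was analysed here, so each comparison is between treatments under water, and ABA itself was not among the measurements.

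ABA is made from carotenoids. A β-carotene hydroxylase, which DSM2 encodes in rice, makes zeaxanthin, ZEP turns it into violaxanthin, and an NCED cleaves the 9-cis forms of violaxanthin and neoxanthin to xanthoxin, the step usually held to limit the rate. Xanthoxin leaves the plastid and is converted to ABA by a short-chain dehydrogenase and an aldehyde oxidase, and the cytochrome P450 enzymes of the ABA8ox (CYP707A) family start its inactivation. In submerged rice shoots, ethylene is known to lower ABA, partly by raising an ABA 8'-hydroxylase transcript, and a lower ABA level favours GA-driven elongation.

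All levels are FPKM, which counts fragments by exon length and by the mapped total, so levels can be compared between genes. FPKM files hold no read counts, so the depth behind a value is unknown and no counting interval is given. The test was limma on log2(FPKM + 1) over the 22946 entries that averaged 0.5 FPKM or more, with p adjusted by the Benjamini-Hochberg method over all of them. An entry counted as a DEG when its adjusted p was below 0.05 and its log2 fold change reached 1 in either direction. Libraries of the same group correlated at 0.867 to 0.894 across entries. The study calls the 3 libraries of a group biological triplicates, and a p-value here measures the spread between them. The groups rest on the column names of the table of all libraries. Of the files deposited for single libraries, 4 of 9 hold the values of another column: the file of GAT replicate 1 equals the PBT replicate 3 column, those of GAT replicates 2 and 3 equal the GAT replicate 1 and 2 columns, and that of PBT replicate 3 equals the PBT replicate 2 column. The PBT replicate 2 file also holds the PBT replicate 2 column, and the GAT replicate 3 column is in no file. The files are therefore not a full relabelling of the 9 columns. The GA synthesis gene SD-1 (LOC_Os01g66100) was at 7.51 FPKM in the PBT replicate 3 column. The other PBT columns had 13.8 and 12.2 FPKM, the GAT columns 42.6 to 47.6 FPKM and the control columns 2.75 to 8.49 FPKM. The column names were taken as right, and which of the 2 sources is right was not tested beyond these values. Summed FPKM of 4 leaf markers, among them the Rubisco small subunit and a chlorophyll a/b binding protein, was 21244 to 22296 in control libraries, 11354 to 11805 in GAT libraries and 14884 to 15605 in PBT libraries. Their part in the results below was not tested. The 2 root markers with an entry differed. Over all 9 libraries LOC_Os02g51110 was at 15.9 to 27.2 FPKM, and LOC_Os03g46470 was at 0.0501 FPKM or less.

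DSM2 (LOC_Os03g03370, chromosome 3) was higher in both sprayed groups than in control, and higher in GAT than in PBT. Its level was 15.5, 10.8 and 7.99 FPKM in the control libraries, 86.6, 60.7 and 56.1 FPKM in GAT, and 24.8, 30.3 and 29.7 FPKM in PBT. The lowest GAT library was above the highest PBT library, and the lowest PBT library was above the highest control library. The mean rose from 11.5 ± 3.81 FPKM (SD, n = 3) in control to 67.8 ± 16.5 FPKM in GAT, a ratio of 5.92 and a log2 fold change of 2.48 (95% interval 1.91 to 3.06, limma adjusted p = 0.000395). This call held when each of the 9 libraries was left out in turn. In PBT the mean was 28.3 ± 3.01 FPKM, a log2 fold change of 1.27 over control (0.70 to 1.85, limma adjusted p = 0.0203). PBT was lower than GAT by a log2 fold change of -1.21 (-1.79 to -0.64, limma adjusted p = 0.0195). Both of these smaller differences depended on single libraries. PBT/Control lost its call without control replicate 2 or 3 or without PBT replicate 2 or 3, with a log2 fold change as low as 1.06 and adjusted p up to 0.0767 over the leave-out fits. PBT/GAT lost it without GAT replicate 1 or any 1 of the PBT replicates, with log2 fold changes from -1.33 to -1.03 and adjusted p up to 0.0697. The deposited table describes the locus only as a fatty acid hydroxylase.

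ZEP (LOC_Os04g37619, chromosome 4), which acts next in the pathway, did not pass the test in any comparison. The control libraries were at 65.2, 70.6 and 75.8 FPKM, the GAT libraries at 65.9, 63.5 and 74.3 FPKM and the PBT libraries at 58.1, 54.8 and 49.7 FPKM. Control and GAT overlapped, and all 3 PBT libraries lay below both. GAT/Control gave a log2 fold change of -0.05 (-0.33 to 0.22, limma adjusted p = 0.833). PBT/Control gave -0.37 (-0.65 to -0.10, limma adjusted p = 0.128) and PBT/GAT -0.32 (-0.60 to -0.04, limma adjusted p = 0.153). Over the 9 libraries ZEP spanned 49.7 to 75.8 FPKM, against 7.99 to 86.6 FPKM for DSM2.

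**Figure D1:**
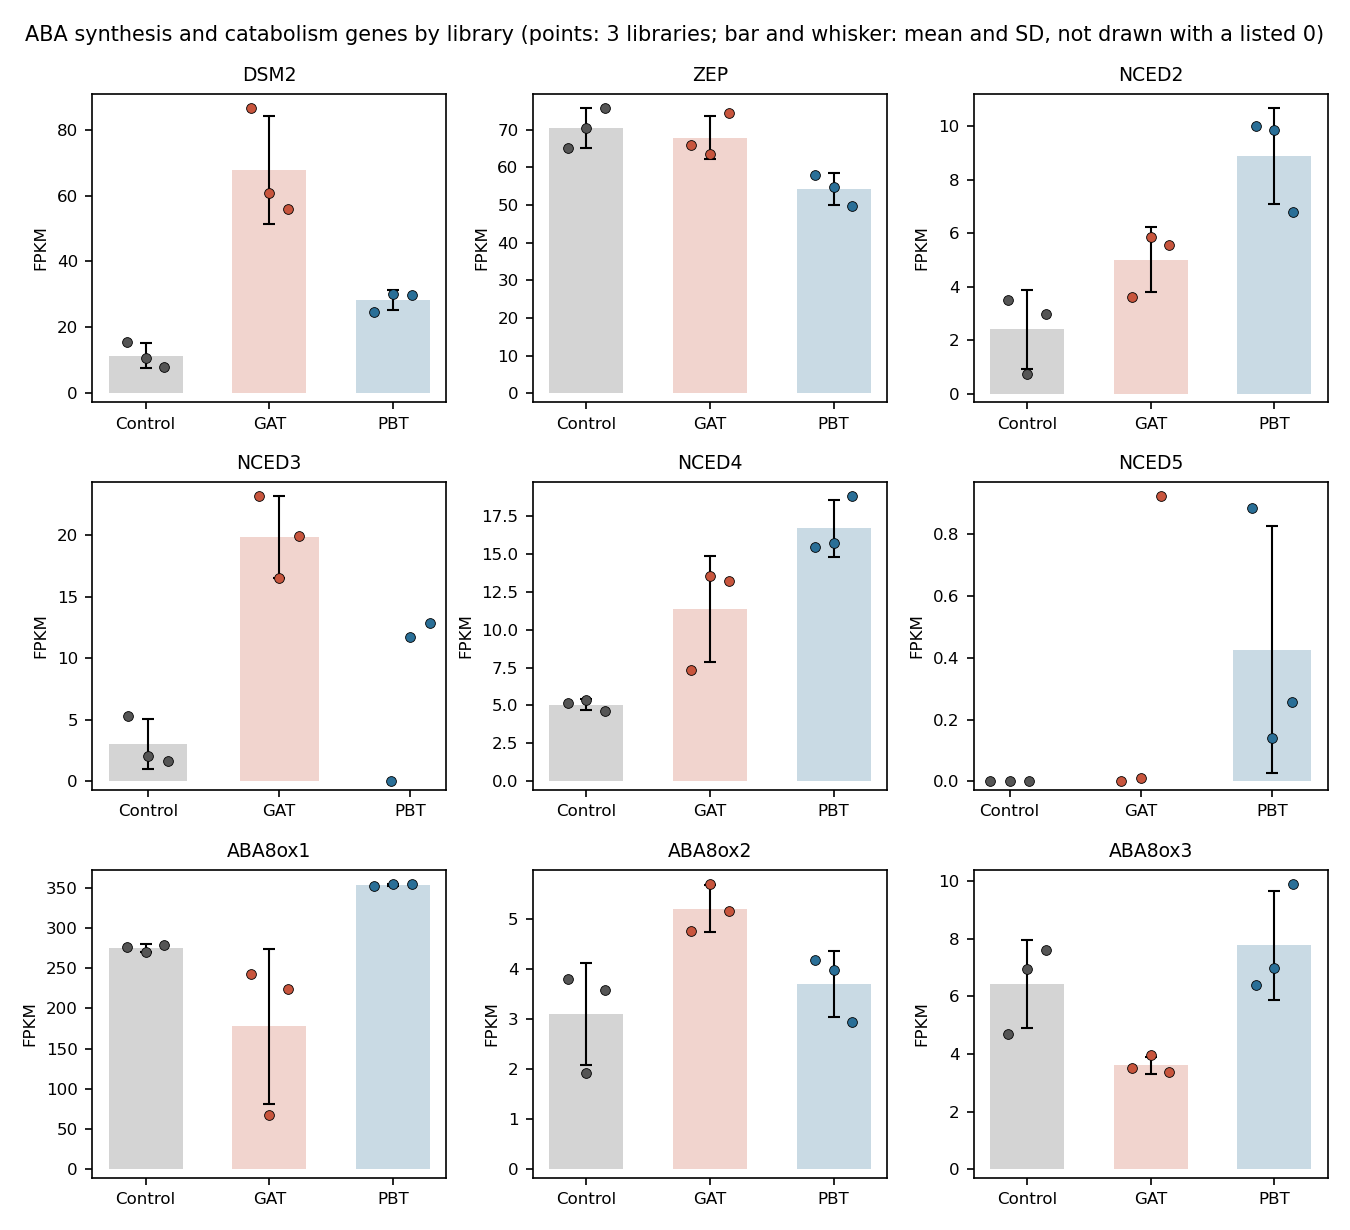
FPKM of DSM2, ZEP, NCED2 to NCED5 and ABA8ox1 to ABA8ox3 in each library of control, GAT and PBT. Points are libraries, bars and whiskers are the mean and SD of 3 libraries, and no bar is drawn where a library is listed at 0. DSM2 was highest in GAT (56.1 to 86.6 FPKM), NCED4 was highest in PBT (15.4 to 18.8 FPKM), and 1 GAT library of ABA8ox1 stood at 67.2 FPKM against 224 and 242 FPKM in the other GAT libraries.

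Among the NCED genes, NCED4 (LOC_Os07g05940, chromosome 7) gave the only difference from control that held in every leave-out fit. Control libraries had 5.17, 5.39 and 4.63 FPKM, GAT libraries 7.35, 13.6 and 13.2 FPKM, and PBT libraries 15.4, 15.7 and 18.8 FPKM. The groups were in the order control, GAT, PBT with no overlap between any of them. NCED4 rose in PBT from 5.06 ± 0.389 to 16.7 ± 1.87 FPKM (SD, n = 3), a ratio of 3.29 and a log2 fold change of 1.54 (1.00 to 2.08, limma adjusted p = 0.00622), with adjusted p between 0.00170 and 0.02995 over the 9 leave-out fits. In GAT the mean was 11.4 ± 3.49 FPKM, and the log2 fold change of 0.99 (0.45 to 1.52, limma adjusted p = 0.0288) fell just short of the fold limit. Without GAT replicate 1 it was 1.25 and passed both limits. PBT/GAT gave 0.55 (0.02 to 1.09, limma adjusted p = 0.201).

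NCED2 (LOC_Os12g24800, chromosome 12) had the same order of groups at lower levels. Its values were 3.52, 0.745 and 2.99 FPKM in control, 3.62, 5.86 and 5.57 FPKM in GAT, and 10.0, 9.86 and 6.81 FPKM in PBT. The groups did not overlap, although the highest control and the lowest GAT library were close. PBT/Control was a DEG with a log2 fold change of 1.63 (0.78 to 2.48, limma adjusted p = 0.0374), from means of 2.42 ± 1.47 and 8.89 ± 1.80 FPKM (SD, n = 3). The call was kept without control replicate 1 and lost when any 1 of the other 8 libraries was left out, with adjusted p up to 0.122, so its place at the threshold was not stable. GAT/Control gave 0.91 (0.06 to 1.76, limma adjusted p = 0.170) and PBT/GAT 0.72 (-0.13 to 1.57, limma adjusted p = 0.294).

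NCED3 (LOC_Os03g44380, chromosome 3) differed from the pair above in its order of levels, with GAT on top. Control libraries had 5.35, 2.02 and 1.66 FPKM, GAT libraries 23.2, 16.5 and 19.9 FPKM, and PBT libraries 0, 11.7 and 12.8 FPKM. All GAT libraries were above all others, while PBT replicate 1 was listed at 0 and the other two PBT libraries were above every control library. GAT/Control had a ratio of 6.60 and a log2 fold change of 2.48 (0.41 to 4.55), but the limma adjusted p was 0.128 with 1 estimate of the spread over the 3 groups. Without PBT replicate 1 the adjusted p of GAT/Control was 0.00423. The same leave-out gave PBT/Control a log2 fold change of 1.84 (limma adjusted p = 0.0419), against 0.60 (-1.48 to 2.67, limma adjusted p = 0.781) with all libraries. PBT/GAT was -1.88 (-3.96 to 0.19, limma adjusted p = 0.261). In these FPKM values a 0 beside high levels in the same group occurred elsewhere too: 680 of the tested entries, or 2.96%, had a 0 and a value above 10 FPKM in 1 group, and a listed 0 is not read here as an absent transcript.

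NCED1 (LOC_Os02g47510, chromosome 2) was the clearest case of such zeros. Its entry was at 0, 0 and 205 FPKM in control, at 0 in all 3 GAT libraries, and at 127, 127 and 116 FPKM in PBT. Thus 5 libraries listed it at 0 and 4 listed it above 100 FPKM, with nothing in between. A second entry that carries the locus name without the locus transcript was at 15.1, 8.74 and 11.4 FPKM in control, 16.4, 17.9 and 12.4 FPKM in GAT, and 14.0, 18.2 and 8.12 FPKM in PBT, where all groups overlapped. The third was at 0.773 FPKM in control replicate 3 and at 0 in the other libraries. Since GAT was listed at 0 throughout, no fold is given for the NCED1 entry. PBT/GAT passed as a DEG (limma adjusted p = 0.0433) but kept this only without control replicate 3 among the 9 leave-out fits, in which adjusted p reached 0.123. It was also lost when the entries of the locus were summed (limma adjusted p = 0.0875). GAT/Control (limma adjusted p = 0.428) and PBT/Control (0.211) were not DEGs, and without control replicate 3 PBT/Control was called at an adjusted p of 1.8e-05. A total of 120 tested entries had a 0 in 1 library and more than 100 FPKM in another.

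**Figure D2:**
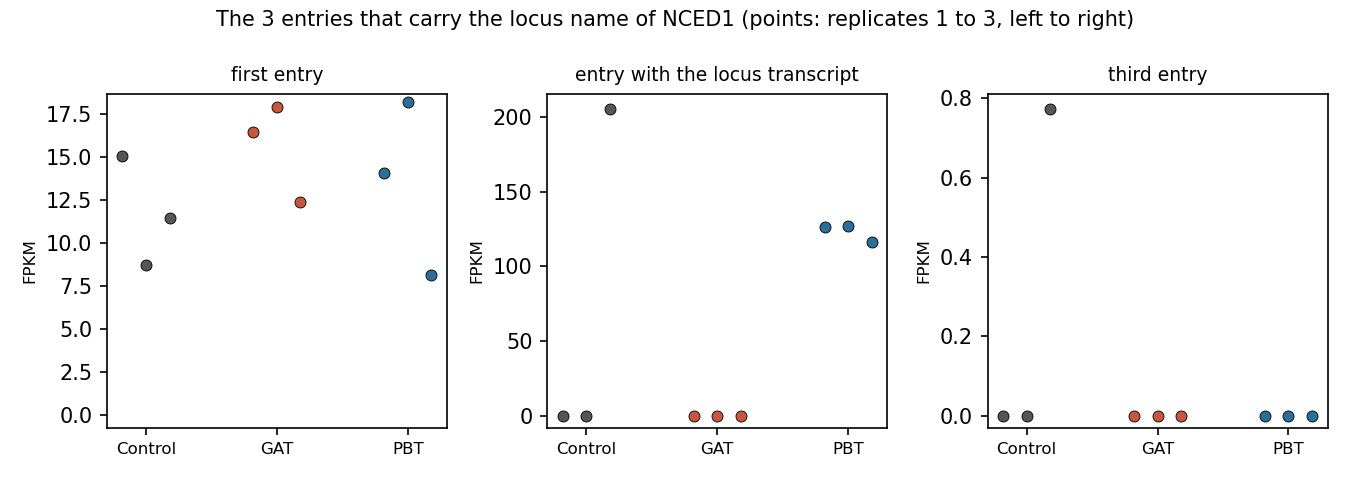
FPKM of the 3 entries that carry the locus name of NCED1, by group, with replicates 1 to 3 from left to right. The entry that holds the locus transcript was listed at 0 in 5 libraries and between 116 and 205 FPKM in the other 4, while the first entry ran from 8.12 to 18.2 FPKM with overlapping groups.

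NCED5 (LOC_Os12g42280, chromosome 12) was hardly detected in these leaves. It was listed at 0 in every control library, at 0, 0.00974 and 0.924 FPKM in GAT, and at 0.884, 0.140 and 0.256 FPKM in PBT. Its mean lay under 0.5 FPKM, so it was the 1 member of 10 that was not tested. Summed over NCED2 to NCED5, the level was 8.16 to 14.0 FPKM in control, 34.2 to 39.6 FPKM in GAT and 26.3 to 38.7 FPKM in PBT, so the treated groups overlapped each other and both lay above control. The 26.3 FPKM came from PBT replicate 1, where NCED3 was listed at 0, beside 37.5 and 38.7 FPKM in PBT replicates 2 and 3. NCED1 is left out of this sum because of its listed zeros in 5 libraries, whereas NCED3 is kept with its 1 listed 0. With NCED1, the sum was 8.16 to 215 FPKM in control, 34.2 to 39.6 FPKM in GAT and 153 to 165 FPKM in PBT. There PBT lay above GAT, and control overlapped with both. NCED3 made up the largest portion of the sum over NCED2 to NCED5 in all 3 GAT libraries and NCED4 in all 3 PBT libraries.

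Most of the summed hydroxylase transcript level came from 1 gene. ABA8ox1 (LOC_Os02g47470, chromosome 2) had 276, 270.0 and 279 FPKM in control, 242, 67.2 and 224 FPKM in GAT, and 352, 354 and 354 FPKM in PBT. The control and PBT libraries were each within a few FPKM of one another and did not overlap, whereas GAT was lower than both and contained 1 library far below its partners. PBT/Control gave a log2 fold change of 0.36 (-0.58 to 1.30, limma adjusted p = 0.697), GAT/Control -0.83 (-1.77 to 0.11, limma adjusted p = 0.257) and PBT/GAT 1.19 (0.25 to 2.13, limma adjusted p = 0.119), and none was a DEG. Without GAT replicate 2, PBT/GAT was 0.60 (limma adjusted p = 0.0073) and the adjusted p of PBT/Control was 0.0363, both under the fold limit. This gene supplied 96.1% to 97.02% of the summed hydroxylase FPKM in control, between 87.4% and 96.7% in GAT, and between 96.5% and 97.1% in PBT. A second entry with its locus name was at 0 in all libraries.

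ABA8ox3 (LOC_Os09g28390, chromosome 9) had 4.69, 6.95 and 7.60 FPKM in control, 3.50, 3.95 and 3.36 FPKM in GAT, and 6.40, 6.99 and 9.90 FPKM in PBT. Every GAT library was below every other library, and control and PBT overlapped. PBT/GAT passed the p limit with a log2 fold change of 0.91 (0.38 to 1.44, limma adjusted p = 0.0438) but not the fold limit, which it passed with a pseudocount of 0.1 (1.06) or median scaling (1.03). GAT/Control gave -0.67 (-1.19 to -0.14, limma adjusted p = 0.108). ABA8ox2 (LOC_Os08g36860, chromosome 8) was at 3.803, 1.92 and 3.59 FPKM in control, 4.77, 5.71 and 5.16 FPKM in GAT, and 4.18, 3.98 and 2.95 FPKM in PBT. Here the GAT libraries were the highest, the reverse of the order for ABA8ox3. Neither GAT/Control (0.63, 0.07 to 1.19, limma adjusted p = 0.148) nor PBT/GAT (-0.41, -0.97 to 0.15, limma adjusted p = 0.371) passed the test. In PBT/Control the log2 fold change was 0.24 for ABA8ox3 (-0.28 to 0.77, limma adjusted p = 0.628) and 0.22 for ABA8ox2 (-0.34 to 0.78, limma adjusted p = 0.683).

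The order of FPKM levels among the members changed with treatment. In control, ABA8ox1 (275 FPKM) was followed by ZEP (70.5), DSM2 (11.5), ABA8ox3 (6.41), NCED4 (5.06), ABA8ox2 (3.11), NCED3 (3.01) and NCED2 (2.42). The libraries of ABA8ox3 and NCED4 overlapped there, as did those of ABA8ox2, NCED3 and NCED2, and 1 NCED3 library also reached the levels of NCED4 and ABA8ox3. In GAT, DSM2 (67.8 FPKM) overlapped with ZEP (67.9) and, because of GAT replicate 2, ABA8ox1 (178) overlapped with both. Overlap here compares the ranges over the libraries of a group. Within each GAT library ABA8ox1 was still the highest member. In GAT replicate 2 it was at 67.2 FPKM, with ZEP at 63.5 FPKM and DSM2 at 60.7 FPKM. NCED3 (19.9 FPKM) and NCED4 (11.4) came next in GAT without overlap, ahead of ABA8ox2 (5.21), NCED2 (5.02) and ABA8ox3 (3.60), in which each neighbour overlapped with the next. In PBT, ABA8ox1 (353 FPKM), NCED1 (123), ZEP (54.2), DSM2 (28.3) and NCED4 (16.7) were separated from one another, NCED2 (8.89) and ABA8ox3 (7.76) overlapped, and ABA8ox2 (3.70) was below them. NCED1 in control and GAT and NCED3 in PBT have no place in this order, as their libraries included a 0. The place of NCED1 in PBT rests on the entry with listed zeros in the other groups. A second entry with its locus name was at 8.12 to 18.2 FPKM in PBT.

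**Figure D3:**
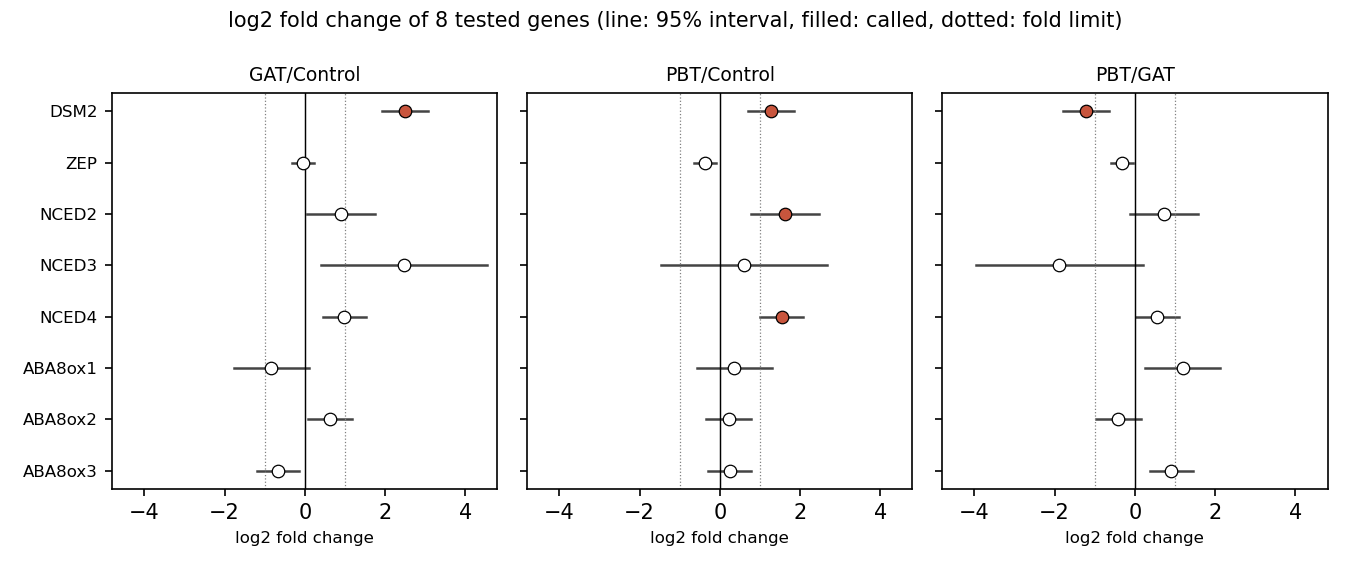
log2 fold change of 8 tested members for each of the 3 comparisons, on the log2(FPKM + 1) scale. Lines are 95% intervals, filled points are DEGs and dotted lines mark the fold limit of 1. NCED1 is left out because GAT was listed at 0. The intervals of NCED3 are the widest (0.41 to 4.55 in GAT/Control), and DSM2 is filled in all 3 panels.

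Counted over the family, 1 of the 9 tested members was a DEG in GAT/Control, where 8.42% of all tested entries were (4.71% higher and 3.72% lower). In PBT/Control 3 of 9 were DEGs, all higher, against 4.34% of all entries and 2.87% in that direction. In PBT/GAT 2 of 9 were DEGs, against 6.30% of all entries, with NCED1 higher (background 3.48%) and DSM2 lower in PBT (background 2.82%). Of the tested members, 8 had a mean of at least 0.5 FPKM in every group, and NCED1 passed through control replicate 3 and PBT. Over those 8 alone the DEGs were 1, 3 and 1. Among those 8, the libraries of the compared groups did not overlap for 7 in GAT/Control (background 29.5%), 5 in PBT/Control (26.3%) and 8 in PBT/GAT (30.0%). Their direction was mixed. In GAT/Control 5 were above (background 16.8%) and 2 below (12.8%), in PBT/Control 4 above (12.9%) and 1 below (13.4%), and in PBT/GAT 4 above (12.6%) and 4 below (17.4%). Over these 8 the middle log2 fold change was 0.77, 0.48 and 0.12 in the same order, beside 0.03, -0.04 and -0.07 over all tested entries. The backgrounds and the middle values over all tested entries were not limited to entries with 0.5 FPKM in every group, unlike the 8 members. The 3 comparisons share their groups, so the counts are not independent of each other.

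The other genes of synthesis were represented by 6 entries, of which 3 merge several loci. By locus number they were listed as neoxanthin formation, the short-chain dehydrogenase, a molybdenum cofactor sulfurase and aldehyde oxidases. None of the 6 entries was a DEG in GAT/Control or PBT/Control by limma. In each of these comparisons 1 entry had an unadjusted p under 0.05. No share over all entries is given at that limit, so nothing is read from it. In PBT/GAT 1 of 6 fell (background 2.82%), the entry shared by LOC_Os01g03750 and LOC_Os01g03760, which the table calls an expressed protein. It had 17.8, 14.7 and 23.1 FPKM in control, 29.5, 24.6 and 26.8 FPKM in GAT, and 11.8, 10.4 and 12.0 FPKM in PBT. PBT was below both other groups, and PBT/GAT gave a log2 fold change of -1.17 (limma adjusted p = 0.00562). The short-chain dehydrogenase entry LOC_Os03g59610 overlapped in all groups, between 2.61 and 8.70 FPKM, and is named after its values were seen.

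**Figure D4:**
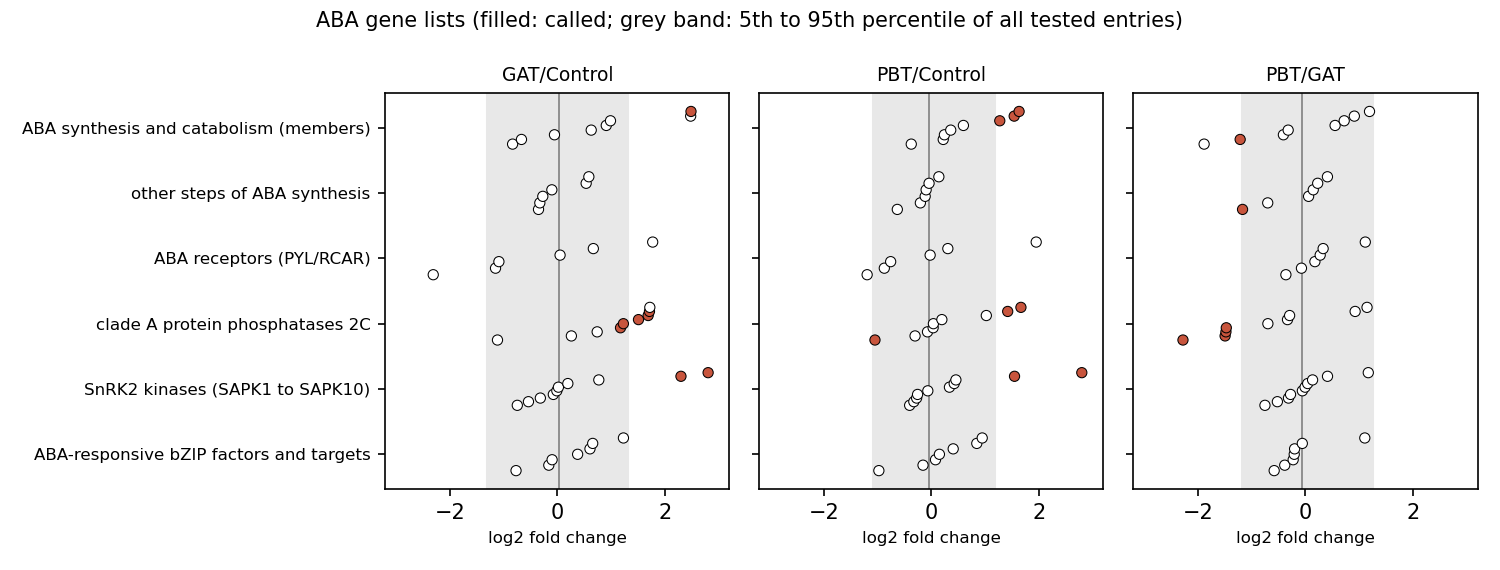
log2 fold change of each tested entry of the members and of the other ABA gene lists, with 1 panel for each comparison. Filled points are DEGs, the grey band runs from the 5th to the 95th percentile of all tested entries, the vertical line is their median, and NCED1 is left out. The list of clade A protein phosphatases holds 5 of the 7 filled points among the signalling lists in GAT/Control and all 4 in PBT/GAT. Of all tested entries, 4.71% were DEGs and higher in GAT/Control, and 2.82% were DEGs and lower in PBT/GAT. Both phosphatase counts include LOC_Os05g49730, which passed the filter through GAT, the group where it is high.

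Downstream of the hormone, ABA binds PYL/RCAR receptors, the bound receptors inhibit clade A protein phosphatases 2C, and the SnRK2 kinases thereby released activate bZIP factors. Transcripts of clade A phosphatases are known as targets of the pathway that feed back on it. These lists were drawn up by locus number, and the deposited table itself describes only 3 of the 9 phosphatase entries as protein phosphatase 2C and 3 of the 10 SnRK2 entries as protein kinases, so the other loci are given by number and list only. Of 32 tested signalling entries, 7 were DEGs in GAT/Control, all higher (background 4.71%). In PBT/Control 4 were higher (2.87%) and 1 lower (1.47%), and in PBT/GAT 4 were lower (2.82%) and none higher (3.48%). The 7 in GAT/Control and the 4 in PBT/GAT include LOC_Os05g49730, which passed the filter on low values through GAT, the group where it is high.

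The phosphatase list held most of these calls. By limma 5 of its 9 tested entries rose in GAT/Control (background 4.71%), 2 rose (2.87%) and 1 fell (1.47%) in PBT/Control, and 4 fell in PBT/GAT (2.82%). With the filter at a mean of 5 FPKM, which leaves out LOC_Os05g49730, 4 of 8 rose in GAT/Control and 3 of 8 fell in PBT/GAT. With a pseudocount of 0.1, 2 of 9 fell in PBT/GAT. The backgrounds above belong to the main setting. No share over all entries is given for these or the other alternatives, so their counts are not set against a background. LOC_Os01g62760 had 27.7, 29.6 and 26.7 FPKM in control, 68.3, 63.9 and 68.4 FPKM in GAT, and 13.4, 16.7 and 9.75 FPKM in PBT. The groups were far apart, with GAT above and PBT below control. Relative to control its log2 fold change was 1.23 for GAT (limma adjusted p = 0.00315) and -1.05 for PBT (0.0120), and in PBT/GAT it was -2.28 (0.000163). Only the PBT/Control call was lost in a leave-out fit, at -0.86 without PBT replicate 3. LOC_Os03g16170 rose in both sprayed groups, from 9.27, 7.51 and 8.79 FPKM in control to 29.5, 31.2 and 29.6 FPKM in GAT and 19.9, 29.9 and 24.3 FPKM in PBT. Both treated groups were above control and overlapped each other, with log2 fold changes of 1.71 (limma adjusted p = 0.000399) and 1.42 (0.00227).

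LOC_Os05g38290 of the same list was highest in GAT, with 15.5, 10.3 and 17.8 FPKM against 5.37, 2.41 and 3.84 FPKM in control and 2.42, 7.22 and 4.61 FPKM in PBT. GAT stood alone, and control and PBT overlapped. It rose in GAT/Control by 1.69 (limma adjusted p = 0.0206), lost without control replicate 2 or 3 or GAT replicate 1 or 3 with adjusted p up to 0.0762. The PBT/GAT call of -1.49 (limma adjusted p = 0.0414) was kept only without PBT replicate 2, and adjusted p reached 0.122. LOC_Os01g46760 had 0.894, 2.11 and 4.14 FPKM in control, 3.67, 4.81 and 4.19 FPKM in GAT, and 8.74, 11.2 and 7.12 FPKM in PBT. Here PBT stood alone, 1.67 above control (limma adjusted p = 0.0269), and the call was kept in 4 of 9 leave-out fits, being lost without control replicate 1 or 2 or any 1 of the PBT replicates, with adjusted p up to 0.103. Both other phosphatase entries with a call, LOC_Os05g51510 and LOC_Os05g49730, are named after their values were seen. LOC_Os05g51510, which shares its entry with LOC_Os05g51520, rose in GAT/Control by 1.51 (limma adjusted p = 0.000477) and fell in PBT/GAT by 1.47 (0.000842), and kept both calls in all leave-out fits. LOC_Os05g49730 was at 0.721, 0 and 0.857 FPKM in control, 2.55, 2.15 and 2.29 FPKM in GAT, and 0.373, 0 and 0.239 FPKM in PBT. Its calls in GAT/Control and PBT/GAT were kept in 1 and 5 of 9 leave-out fits, and nothing is read from them, since it entered the test through its GAT level. Over the leave-out fits the list had 3 to 5 higher entries in GAT/Control and 2 to 3 lower entries in PBT/GAT, the value of 2 arising without GAT replicate 2, GAT replicate 3 or PBT replicate 3, and the value of 3 in GAT/Control without control replicate 2, GAT replicate 1 or GAT replicate 3.

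**Figure D5:**
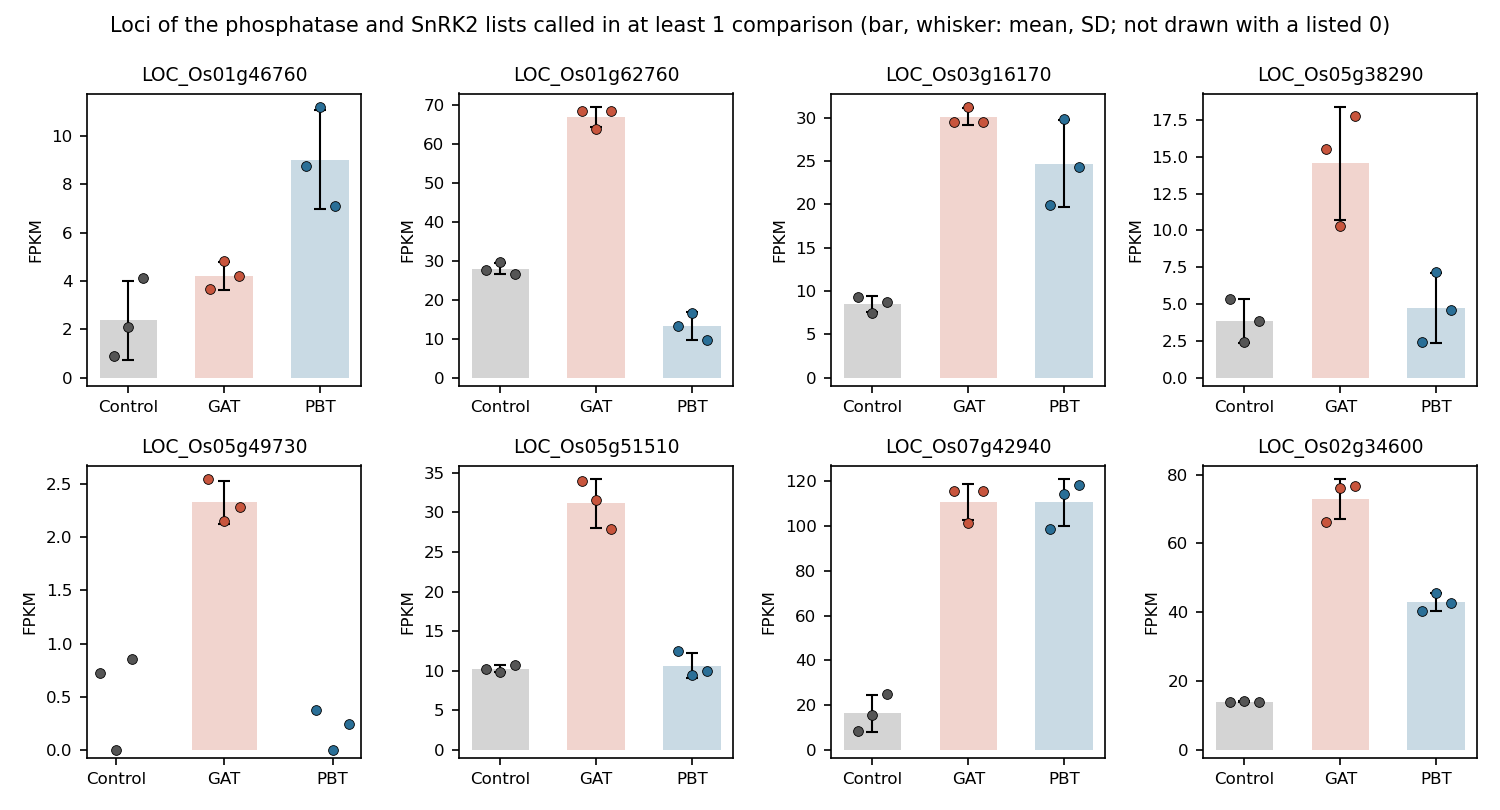
FPKM by library of the 6 phosphatase and 2 SnRK2 list entries that were DEGs in at least 1 comparison. Points are libraries, bars and whiskers are the mean and SD of 3 libraries, and no bar is drawn where a library is listed at 0. LOC_Os01g62760 runs from 63.9 to 68.4 FPKM in GAT and from 9.75 to 16.7 FPKM in PBT, whereas LOC_Os07g42940 is near the same level in both treated groups.

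In the SnRK2 list 2 of 10 entries rose against control both in GAT (background 4.71%) and in PBT (2.87%), and no alternative changed these calls. LOC_Os07g42940 went from 8.46, 15.6 and 25.0 FPKM in control to 115, 102 and 116 FPKM in GAT and 98.7, 114 and 118 FPKM in PBT. Both treated groups were above control and overlapped each other, with a log2 fold change of 2.80 in each comparison (limma adjusted p = 0.000642 and 0.00147). LOC_Os02g34600, a calcium/calmodulin-dependent-like protein kinase in the table's words, was at 14.0, 14.1 and 13.9 FPKM in control, 66.3, 76.0 and 76.6 FPKM in GAT, and 40.3, 45.6 and 42.7 FPKM in PBT. All groups were apart, with log2 fold changes over control of 2.30 for GAT (limma adjusted p = 1.4e-05) and 1.55 for PBT (0.000231).

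No receptor entry (6 of 9 tested) and no entry of the bZIP and target list (7 of 8 tested) was a DEG in any comparison by limma. At an unadjusted p under 0.05 there were 2, 0 and 0 receptor entries and 3, 1 and 1 bZIP and target entries for GAT/Control, PBT/Control and PBT/GAT, in that order. No share over all entries is given at that limit, so nothing is read from these counts. Without control replicate 3, 1 receptor entry was called lower in GAT/Control, and without GAT replicate 1, 1 bZIP or target entry was called higher in PBT/GAT. The bZIP transcription factor LOC_Os02g52780 had 39.4, 37.6 and 38.7 FPKM in control, 92.4, 21.5 and 20.2 FPKM in GAT, and 76.8, 73.9 and 74.8 FPKM in PBT, and it is named after its values were seen. PBT was well above control, while the GAT libraries lay on both sides of every other library, and its limma adjusted p in PBT/Control was 0.340.

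For each member with a call, the entries with the most similar pattern over the 9 libraries were found by Pearson correlation of log2(FPKM + 1) with the 19790 or 19791 other tested entries that carry a locus name. The highest correlations describe these libraries, which share treatments. The entries were picked for that similarity, so a shared order of groups or libraries follows from the choice. DSM2 was closest to LOC_Os01g56810 (0.987) and LOC_Os02g08018 (0.983). The former had 0.405 to 1.97 FPKM in control, 10.0 to 16.6 FPKM in GAT and 4.49 to 6.56 FPKM in PBT, the same order of groups as DSM2 at lower levels. NCED4 was closest to LOC_Os01g56930 (0.978) and LOC_Os05g31760 (0.967), and NCED2 to LOC_Os11g13810 (0.961) and the cytochrome P450 72A1 LOC_Os01g43844 (0.957). NCED1 was closest to LOC_Os01g73940, an expressed protein that was at 0 in the same 5 libraries and at 237 to 377 FPKM in the other 4, and then to the mttA/Hcf106 family gene LOC_Os03g43430 (0.962). That last gene was detected in all libraries, at 35.5 to 107 FPKM in control, 22.05 to 29.9 FPKM in GAT and 101 to 120 FPKM in PBT. Its control replicate 3 was at the level of PBT.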

How the data were processed

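Leaf RNA of submerged IR64 plants was sequenced as 9 libraries, 3 per group, and groups were taken from the library names. According to the study's methods, the authors aligned reads with Tophat to the MSU pseudomolecules and assembled transcripts with Cufflinks. The submitters' processing notes list Bowtie 0.12.2. The authors deposited FPKM per entry and library. How reads that match several genes were assigned is not given in the sources used here. Of the 9 files per library, 4 hold the values of another library, in 1 case of another group, so the table of the whole series was used and its column names were taken as right. Its annotation columns were used only for names.

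Entries averaging 0.5 FPKM or more were tested as log2(FPKM + 1) with limma 3.58.1 in R 4.3.3, with 3 group means, a variance trend and Benjamini-Hochberg adjustment over 22946 entries. The pseudocount of 1 understates changes of low genes. The procedure was run on simulated data drawn as normal values. These held no listed zeros beside high levels, so the run does not cover entries such as NCED1 and NCED3. All members are named, with up to 4 called entries of each other list that changed most and 2 entries of most similar pattern per called member. Other entries named were chosen after their values were seen. Members and lists were chosen with earlier results of these data known. Alternatives covered the pseudocount, filter, scaling, samples in the fit, replicate block, thresholds and each left-out library, 22 alternatives in all. RefSeq names (assembly ASM3414082v1) matched 5 of the 10 members, and none of its coordinates was used.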

Additional observations from a re-analysis of the deposited data

How the results depend on the processing

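Of 537 log2 fold changes of members under the alternatives, 533 kept their direction. Many of them could not turn. A log2 fold change stays as it was when a library of the group outside the comparison is left out. It also stays with another filter, the replicate block, only the groups compared or no variance trend. The count is therefore not read as a measure of stability. The 4 that turned were not DEGs: NCED3 in PBT/Control at -0.14 with a pseudocount of 0.1 and -0.056 without PBT replicate 3 (-0.056 to 1.84 over the fits with a replicate left out), ABA8ox2 in PBT/Control at -0.0071 without control replicate 2 (-0.0071 to 0.35), and NCED1 in GAT/Control at 0.00 without control replicate 3, which leaves 0 in both groups (-3.84 to 0.00). The number of member DEGs in GAT/Control was 2 in place of 1 with a pseudocount of 0.1 or 0.5, with only the groups compared in the fit, with a single listed 0 taken as missing, or without a fold limit, and 1 to 2 when a replicate was left out. In PBT/Control it was 1 in place of 3 at an adjusted p under 0.01, 2 with a pseudocount of 0.1, no filter on low values, a replicate block or only the groups compared, 4 with a single listed 0 taken as missing, and 1 to 3 with a replicate left out. In PBT/GAT it was 1 in place of 2 with no filter on low values, with a replicate block, with entries of the same locus name summed, or with no variance trend, 3 with a pseudocount of 0.1, median scaling or no fold limit, 0 at an adjusted p under 0.01, and 0 to 2 with a replicate left out. The replicate numbers mark no shared batch in the labels: the deviations of the 9 same-numbered pairs correlated at -0.037 to 0.012 and those of the 18 others at -0.018 to 0.032. With the replicate block the member DEGs were 1, 2 and 1 in the 3 comparisons, and the phosphatase list had 3 higher entries in GAT/Control. No share over all entries is given beside these counts under each alternative, so nothing about the members is read from their shifts. With a replicate left out, the DEGs over all entries numbered 1651 to 1824 in GAT/Control, 695 to 1013 in PBT/Control and 1063 to 1386 in PBT/GAT. Over all entries, raising the filter to a mean of 5 FPKM gave 1200 DEGs in GAT/Control against 1933 and 933 in PBT/GAT against 1446, with fewer entries tested, and an adjusted p under 0.01 gave 1109, 523 and 749 against 1933, 996 and 1446. Depth is unknown, so the precision of members under a few FPKM cannot be stated, and the cause of the other shifts was not tested.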
